A study of Mus musculus with 6 samples.

Results

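The set described here holds genes of the integrated stress response and the tRNA synthetases that charge tRNAs in the cytosol. Its 40 genes were listed by name. They comprise the kinases and phosphatase subunits that act on the translation factor eIF2, the *Atf4* axis, enzymes of amino acid synthesis, and the cytosolic tRNA synthetases. Of the 40, 38 had values among the 11234 genes of the series, and FPKM values of *Atf3* and *Cth* were not analysed here. The members fell into 3 genes for eIF2 kinases and eIF2α, 2 for subunits of the eIF2α phosphatase, 5 for the ATF4 axis, 8 for amino acid and one-carbon synthesis and 20 for cytosolic synthetases.

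In the integrated stress response, kinases that sense unfolded protein or missing amino acids phosphorylate eIF2α. This lowers translation in general and raises translation of *Atf4*, whose protein drives genes for amino acid synthesis and uptake and for tRNA charging. *Ppp1r15a* (GADD34) closes the loop: it brings protein phosphatase 1 to eIF2α and removes the phosphate. ATF4 is also known in bone as a factor of osteoblast maturation and collagen synthesis, processes with a high demand for amino acids.

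RNA was measured in MC3T3-E1 cells, a murine pre-osteoblast line of C57BL/6 origin, at passage 4. All cells were held in serum-free medium for 24 h and then kept for 24 h in complete medium. The C3G group (3 libraries) received 100 μmol/L cyanidin-3-O-glucoside (C3G), a plant pigment of the anthocyanin class, with that medium, and the control group (3 libraries) received the medium without it; the sample labels write the unit of the dose as um/l. This is a single line at 1 dose and 1 time. The abstract of the study calls the controls vehicle-treated, while its methods describe medium without C3G. The labels do not say that the libraries of a group came from separate cultures, so the p-values measure the spread between these libraries, which may be technical. In bulk RNA, fewer cells that express a gene and less of its RNA per cell cannot be told apart.

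The values are FPKM, which scales fragment counts by the library total and the gene length, and sequencing depth is unknown. The median FPKM of all genes was 5.80 in control replicate 1 and 6.93 to 7.40 in the other 5 libraries, and 71 genes were listed at 0 in control replicate 1, against 9 to 18 elsewhere. That library stood apart from the rest. Of 9 osteoblast markers 8 had values, with a summed FPKM of 2510 to 7580 in the controls and 2560 to 3440 with C3G; the highest sum was that of control replicate 1. *Runx2* was at 5.46 to 8.81 FPKM in the controls and at 7.14 to 9.07 FPKM with C3G. *Sp7* was low, at 0.51 to 0.753 FPKM in the controls and 0.237 to 0.857 FPKM with C3G, and *Ibsp* was the marker without values. Among markers of other cells, 1 of 4 for macrophages (*Cd68*, up to 1.25 FPKM) and 1 of 3 for epithelium (*Cdh1*, up to 1.37 FPKM) had values, and none of the 2 endothelial or 2 adipocyte markers did.

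Some promoters of the set hold letters that match known binding motifs of the pathway. Stretches are shown for *Ppp1r15a*, the gene called below, and for members of each role in which the ATF4 motif was found, to show what these matches look like. ATF4 binds, with a C/EBP partner, the element TGATGNAA (CARE), and the cyclic AMP response element is the palindrome TGACGTCA (CRE). Each was searched on both strands in the RefSeq windows (GRCm38.p6) from 250 bases before to 50 bases after the start, which 31 of the 40 listed genes had. The CARE was found in 10 of the 31 (32.3%) and in 1219 of 27025 genes with a window (4.51%). The CRE was found in 1 of the 31 (3.23%), *Ppp1r15a*, and in 549 of all genes with a window (2.03%). No match of one motif overlapped a match of the other. In the stretches below, written 5′ to 3′ on the strand of the gene, capitals mark the match, and a match on the opposite strand reads TTNCATCA.
*Ppp1r15a* (CRE, 12 bases upstream, chr7:45526262-45526291, minus strand): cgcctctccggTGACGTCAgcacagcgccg
*Asns* (CARE, 23 bases upstream, chr6:7693214-7693243, minus strand): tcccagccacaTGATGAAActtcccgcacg
*Chac1* (CARE, 193 bases upstream, chr2:119351038-119351067, plus strand): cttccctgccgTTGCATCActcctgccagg
*Trib3* (CARE, base 15 after the start, chr2:152344028-152344057, minus strand): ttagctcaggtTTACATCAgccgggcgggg
*Pycr1* (CARE, 103 bases upstream, chr11:120643833-120643862, minus strand): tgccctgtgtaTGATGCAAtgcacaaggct
*Gars* (CARE, 30 bases upstream, chr6:55037960-55037989, plus strand): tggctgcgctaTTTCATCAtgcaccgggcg
*Iars* (CARE, base 8 after the start, chr13:49682126-49682155, plus strand): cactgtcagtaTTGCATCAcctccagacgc
*Tars* (CARE, 15 bases upstream, chr15:11399655-11399684, minus strand): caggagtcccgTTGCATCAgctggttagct
*Yars* (CARE, base 4 after the start, chr4:129189895-129189924, plus strand): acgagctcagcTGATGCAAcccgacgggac
By role, the CARE was found in 3 of 6 windows of the ATF4 axis, *Atf3* included, in 2 of 8 of amino acid synthesis and in 5 of 13 of the synthetases. It was found in none of the 3 windows of the eIF2 kinases and eIF2α or the 1 of the phosphatase subunits. These matches describe the letters of the windows, and binding was not measured.

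C3G and control libraries were compared with limma, two-sided, on log2(FPKM + 1) over all 11234 genes. A gene was called where its unadjusted p was below 0.05 and its fold change reached 1.2. On this scale the change of a low gene is understated. Of the 38 members, 1 was called lower with C3G (*Ppp1r15a*, 2.63%) and 0 were called higher. Over all genes 73 were called (0.65%), 45 of them higher (0.401%) and 28 lower (0.249%). After Benjamini-Hochberg adjustment over all genes limma called 0 genes (0%), members included. At an unadjusted p under 0.05 alone it had 74 genes and 1 member. The libraries of the groups did not overlap in 2 members (5.26%), *Ppp1r15a* and *Qars*, a share close to the 452 of all genes (4.02%). The log2 fold change was above 0 in 22 members and below 0 in 16, with a median of 0.04, beside 0.06 over all genes. It was above 0 in 18 members with quantile normalization, in 17 with the GC correction described below and in 16 with median centring.

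*Ppp1r15a*, the inducible subunit of the eIF2α phosphatase (ENSMUSG00000040435.12, chr7:45522916-45526268, minus strand, GRCm38), was lower in the C3G libraries. The study that reported these data also lists it as downregulated, while its quantitative PCR gave no significant difference for this gene. In control replicates 1, 2 and 3 *Ppp1r15a* stood at 15.1, 8.69 and 8.89 FPKM. With C3G the replicates stood at 5.98, 6.65 and 5.67 FPKM. Every treated library lay below every control library, and control replicate 1 lay well above the other controls. The group means were 10.9 ± 3.63 FPKM (SD, n = 3) without C3G and 6.10 ± 0.50 FPKM (SD, n = 3) with it. The log2 fold change was -0.70 (standard error 0.234, 95% interval -1.26 to -0.15), a 1.63-fold difference, with an unadjusted limma p of 0.0204 and an adjusted p of 0.992. The exact permutation test, two-sided, gave 0.1, the smallest p that 3 libraries against 3 allow. Between libraries with the same replicate number the differences were -1.20, -0.34 and -0.57 on the log2 scale, so C3G was lower in 3 of 3 pairs.

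The size of this difference depended on control replicate 1. With replicates 2 and 3 only in both groups it was -0.45 with a limma p of 0.00645, and without control replicate 1 alone it was -0.47 with a limma p of 0.00773. The gene passed both thresholds in 12 of 14 alternative treatments of the data. It missed the p threshold without C3G replicate 1 (-0.69, with a limma p of 0.0564) and without C3G replicate 3 (-0.66, with a limma p of 0.0672). An exon of *Tulp2* on the opposite strand overlaps the gene by 12 bases.

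*Ppp1r15b*, the constitutive subunit that takes the same place in the phosphatase, was the more abundant of the pair, with all libraries above those of *Ppp1r15a*. Its controls had 17.0, 30.6 and 25.9 FPKM and its C3G libraries 25.7, 29.5 and 26.5 FPKM. Here control replicate 1 was the lowest library, where for *Ppp1r15a* it was the highest, and the groups overlapped. Its log2 fold change was 0.18 (95% interval -0.37 to 0.74). Without control replicate 1 it was -0.05, so its direction rested on that library. Its exons overlap *Gm26616* on the opposite strand by 640 bases.

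The kinases that act before the phosphatase showed small differences. *Eif2ak3* (PERK), the kinase that senses unfolded protein in the endoplasmic reticulum, had 7.17, 6.81 and 7.20 FPKM in the controls and 7.86, 6.73 and 8.15 FPKM with C3G, a log2 fold change of 0.09. *Eif2ak4* (GCN2), which senses uncharged tRNA, had 3.31, 3.81 and 3.63 FPKM in the controls and 3.32, 3.79 and 4.30 FPKM with C3G, a log2 fold change of 0.06. In both kinases the groups overlapped and the highest library was C3G replicate 3. *Eif2s1*, the gene of eIF2α itself, had the smallest p of this role, with 10.2, 25.8 and 23.3 FPKM in the controls and 18.6, 25.5 and 22.8 FPKM with C3G. Replicate 1 was the low library of each group, and replicates 2 and 3 were nearly equal between the groups. Its means were 19.8 ± 8.38 FPKM (SD, n = 3) and 22.3 ± 3.45 FPKM (SD, n = 3), and its log2 fold change of 0.25 (95% interval -0.57 to 1.08) did not exceed that spread (exact permutation p = 0.9, limma p = 0.489). Without control replicate 1 the sign turned, to -0.14. By level *Eif2s1* was the highest of the 3 genes, followed by *Eif2ak3* at a mean of 7.32 FPKM over the 6 libraries and *Eif2ak4* at 3.69 FPKM, and none of these neighbours overlapped.

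*Atf4*, the transcription factor at the centre of the response (ENSMUSG00000042406.7, chr15:80255184-80257541, plus strand), was the highest member, above 98.1% of all genes by mean FPKM. Its controls had 108, 172 and 142 FPKM and its C3G libraries 167, 188 and 135 FPKM. The highest and the third highest value were treated libraries, the lowest was control replicate 1, and the groups overlapped. The means were 141 ± 32.0 FPKM (SD, n = 3) without C3G and 163 ± 26.4 FPKM (SD, n = 3) with it. The log2 fold change of 0.23 (standard error 0.231, 95% interval -0.32 to 0.78) did not exceed the spread between replicates (exact permutation p = 0.5, limma p = 0.359). With replicates 2 and 3 only, the difference was 0.03, with a limma p of 0.874. ATF4 is regulated mostly at translation, which RNA levels do not show.

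**Figure D1:**
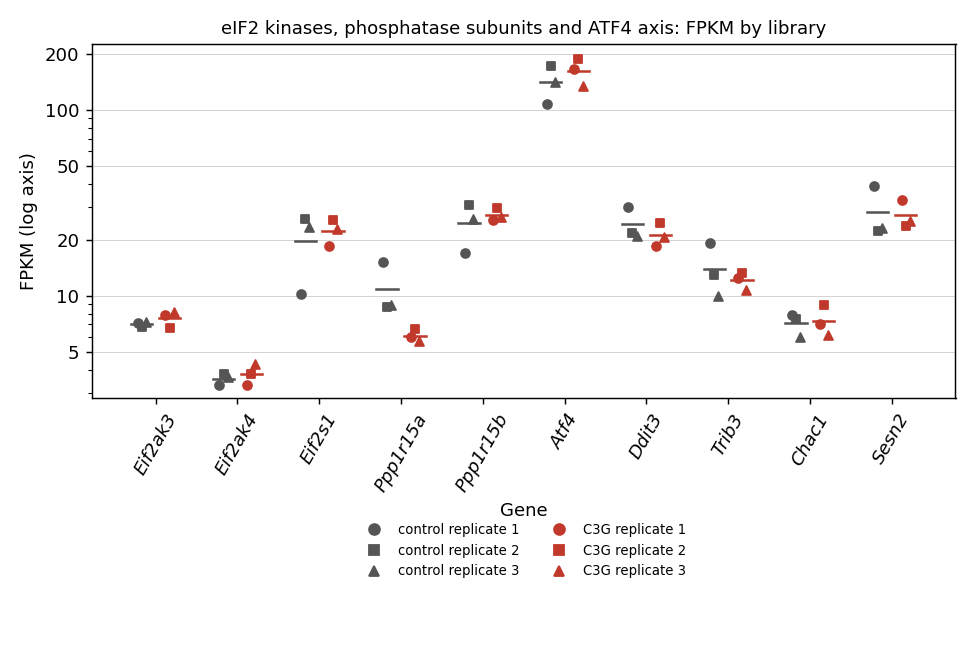
FPKM (log axis) of the 10 genes for eIF2 kinases, eIF2α, phosphatase subunits and the ATF4 axis in each library. Circles, squares and triangles are replicates 1, 2 and 3, grey is control, red is C3G and the bars are group means. *Ppp1r15a* is the gene of this plot whose groups do not overlap, at 8.69 to 15.1 FPKM in the controls and 5.67 to 6.65 FPKM with C3G, and circles of control replicate 1 lie at an end of most columns.

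Of the other 4 genes of the axis, *Ddit3*, *Trib3*, *Chac1* and *Sesn2*, none was called, beside 0.65% of all genes. *Ddit3* (CHOP), a factor of stress-induced cell death, had 30.1, 21.8 and 20.9 FPKM in the controls and 18.5, 24.5 and 20.8 FPKM with C3G, a log2 fold change of -0.17. *Trib3*, a pseudokinase that restrains ATF4, had 19.3, 12.9 and 9.93 FPKM in the controls and 12.5, 13.2 and 10.7 FPKM with C3G, a log2 fold change of -0.15. In both, control replicate 1 was the highest of the 6 libraries and the groups overlapped; with replicates 2 and 3 only, the differences were 0.08 and 0.07. *Chac1*, an enzyme that breaks down glutathione, had 7.83, 7.46 and 6.00 FPKM in the controls and 7.00, 8.88 and 6.11 FPKM with C3G, a log2 fold change of 0.03. *Sesn2*, a leucine sensor upstream of mTORC1, had 39.0, 22.4 and 23.1 FPKM in the controls and 32.6, 23.6 and 25.4 FPKM with C3G, a log2 fold change of -0.02. For *Sesn2* the first replicate was the high one in each group, and without control replicate 1 the difference was 0.23. The median over the 5 genes of the axis was -0.02, with *Ddit3* lowest and *Atf4* highest. The exons of *Ddit3* and *Mars*, neighbours on opposite strands, overlap by 68 bases.

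Of the 8 genes for amino acid and one-carbon synthesis, 6 had a fold change above 0 and 2 below, with a median of 0.07. None was called, beside 0.65% of all genes, and none was free of overlap, beside 4.02%, shares at which a list of 8 could be empty. *Asns* (asparagine synthetase, a classical ATF4 target), whose CARE is shown above, had the largest difference of all members above 0. Its controls had 15.6, 40.6 and 30.5 FPKM and its C3G libraries 39.5, 40.4 and 32.3 FPKM. Control replicate 1 was far below the other 5 libraries, which lay close together. The means were 28.9 ± 12.6 FPKM (SD, n = 3) and 37.4 ± 4.42 FPKM (SD, n = 3), with a log2 fold change of 0.45 (standard error 0.338, 95% interval -0.35 to 1.26). This did not exceed the spread between replicates (exact permutation p = 0.4, limma p = 0.223), and it was 0.08 without control replicate 1.

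*Phgdh*, *Psat1* and *Psph* form the serine branch. *Phgdh*, the first enzyme of serine synthesis, had 132, 75.2 and 76.9 FPKM in the controls and 92.4, 78.4 and 68.2 FPKM with C3G, a log2 fold change of -0.21. *Psat1*, the transaminase that follows it, had 42.9, 50.6 and 47.1 FPKM in the controls and 53.6, 52.0 and 46.0 FPKM with C3G, a log2 fold change of 0.11. *Psph*, the phosphatase that completes serine, had 10.6, 7.61 and 6.28 FPKM in the controls and 8.29, 9.50 and 6.95 FPKM with C3G, a log2 fold change of 0.03. The groups overlapped in each of the 3 genes. Control replicate 1 was the highest library for *Phgdh* and *Psph* and the lowest for *Psat1*, and without it the fold changes were 0.06, 0.05 and 0.21 for *Phgdh*, *Psat1* and *Psph*. The level of *Phgdh* is uncertain, since 47.44% of its transcript, cut into overlapping stretches of 75 bases, is shared with other annotated genes. *Psph* shares 452 exonic bases with *Cct6a* on the opposite strand.

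*Shmt2* and *Mthfd2* carry the serine-derived carbon through mitochondrial folate. *Shmt2* had 65.1, 67.4 and 56.7 FPKM in the controls and 57.1, 68.3 and 54.2 FPKM with C3G, a log2 fold change of -0.08. *Mthfd2* had 13.1, 27.2 and 23.2 FPKM in the controls and 19.7, 31.0 and 21.2 FPKM with C3G, a log2 fold change of 0.20. In *Mthfd2* replicate 1 was the lowest library of each group, and the difference was -0.09 without control replicate 1 and 0.01 without C3G replicate 2. Proline, abundant in collagen, is made by *Aldh18a1* and *Pycr1*. *Aldh18a1* had 44.0, 39.5 and 38.1 FPKM in the controls and 45.4, 45.1 and 38.5 FPKM with C3G, a log2 fold change of 0.08. *Pycr1* had 4.63, 3.87 and 4.21 FPKM in the controls and 5.06, 4.29 and 3.95 FPKM with C3G, a log2 fold change of 0.05. *Aldh18a1* was higher with C3G in 3 of 3 same-numbered pairs, by 0.01 to 0.19 on the log2 scale, and its groups still overlapped. *Pycr1* was the lowest gene of this role by mean FPKM (4.33), about where 34.1% of all genes lie below.

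The 20 genes for cytosolic synthetases, enzymes that load amino acids onto their tRNAs, had 10 fold changes above 0 and 10 below. With the GC correction 4 were above 0 and 16 below, and with median centring 8 and 12. The split was 7 above and 13 below without control replicate 1, and 5 above and 15 below without C3G replicate 2. They ran from -0.26 (*Wars*) to 0.24 (*Rars*), 0 were called in either direction, beside 0.65% of all genes, and 1 (5.0%) was free of overlap, beside 4.02%. Their summed FPKM was 549, 622 and 571 in the control replicates and 532, 626 and 555 in the C3G replicates. Replicate 2 had the highest sum in both groups and replicate 1 the lowest, and the groups overlapped.

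*Qars*, for glutamine, had groups that did not overlap. Its controls had 5.53, 5.75 and 5.57 FPKM and its C3G libraries 6.81, 6.23 and 6.27 FPKM. The treated libraries all lay above the controls, by 0.26, 0.10 and 0.15 on the log2 scale within the same-numbered pairs. The means were 5.62 ± 0.12 FPKM (SD, n = 3) and 6.44 ± 0.327 FPKM (SD, n = 3). The log2 fold change of 0.17 (standard error 0.143, 95% interval -0.17 to 0.51), a 1.12-fold difference, passed neither threshold (limma p = 0.279, exact permutation p = 0.1). With quantile normalization or median centring it was 0.10 and the groups overlapped.

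*Hars*, for histidine, had the smallest p of the synthetases. Its controls had 39.3, 37.7 and 33.4 FPKM and its C3G libraries 29.8, 35.1 and 30.1 FPKM. It was lower with C3G in 3 of 3 same-numbered pairs, but C3G replicate 2 lay above control replicate 3. The means were 36.8 ± 3.06 FPKM (SD, n = 3) and 31.7 ± 2.99 FPKM (SD, n = 3), with a log2 fold change of -0.21 (standard error 0.154, 95% interval -0.58 to 0.16, limma p = 0.217, exact permutation p = 0.2). The exons of *Hars* overlap those of its mitochondrial partner *Hars2* on the opposite strand by 195 bases.

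In *Rars*, *Yars* and *Vars* control replicate 1 stood apart from the other libraries. *Rars*, for arginine, had 12.0, 37.2 and 32.9 FPKM in the controls and 23.1, 34.3 and 31.4 FPKM with C3G, a log2 fold change of 0.24 with a 95% interval of -0.76 to 1.24. *Yars*, for tyrosine, had 31.2, 18.4 and 16.4 FPKM in the controls and 18.6, 18.4 and 17.0 FPKM with C3G, a log2 fold change of -0.22. *Vars*, for valine, had 58.9, 36.5 and 36.1 FPKM in the controls and 39.9, 35.5 and 36.3 FPKM with C3G, a log2 fold change of -0.19. With replicates 2 and 3 only, these differences were -0.09, 0.02 and -0.02. *Wars*, for tryptophan, had the largest difference of the synthetases at -0.26, with 17.7, 10.7 and 19.6 FPKM in the controls and 13.6, 12.8 and 12.2 FPKM with C3G. There control replicate 2 was the odd library, and the gene passed both thresholds in 1 of 14 alternatives, the fit without that library.

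**Figure D2:**
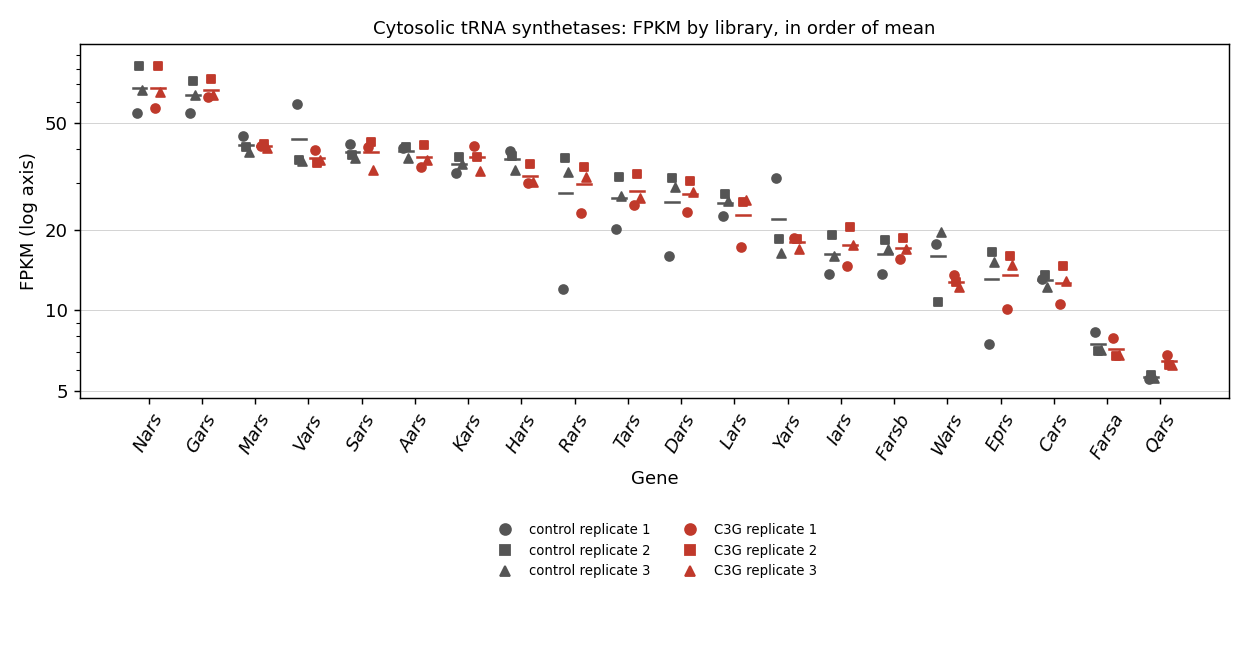
FPKM (log axis) of the 20 cytosolic tRNA synthetases in each library, in order of their mean over the 6 libraries. Symbols are replicates, grey is control, red is C3G and the bars are group means. *Nars* leads at a mean of 67.9 FPKM and *Qars* is last at 6.03 FPKM, and the red and grey points overlap in every gene but *Qars*.

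By level, *Nars* (asparagine, mean 67.9 FPKM over the 6 libraries) and *Gars* (glycine, 65.1) stood first and overlapped with each other. A step without overlap led to *Mars* (methionine, 41.4), which was followed by *Vars* (40.5), *Sars* (serine, 39.0), *Aars* (alanine, 38.4), *Kars* (lysine, 36.2) and *Hars* (34.2). *Rars* (28.5), *Tars* (threonine, 27.0), *Dars* (aspartate, 26.2), *Lars* (leucine, 23.9) and *Yars* came next. *Iars* (isoleucine, 16.9), *Farsb* (16.7), *Wars* (14.4), *Eprs* (13.3) and *Cars* (cysteine, 12.8) followed. Another step without overlap led to *Farsa* (7.32) and *Qars* (6.03). Of the 19 neighbouring pairs in this order, 17 overlapped, so most of the order is not resolved. The steps hold for neighbours only and do not separate whole blocks. *Vars*, at 35.5 to 58.9 FPKM, overlapped *Nars* and *Gars* across the first step, and *Eprs* overlapped *Farsa* across the second. *Farsa* and *Farsb* encode the α and β chains of the same enzyme, for phenylalanine, and their libraries did not overlap, at 6.76 to 8.30 and 13.7 to 18.6 FPKM. *Eprs*, the fused enzyme for glutamate and proline, ranged from 7.46 to 16.5 FPKM. The steadiest synthetase was *Mars*, whose highest library was 1.15 times its lowest. For *Aars*, 22.06% of the stretches are shared with *Exosc6* on the same strand. Over the whole set, 25 of 38 members lay above 75% of all genes by mean FPKM and 35 above the median.

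**Figure D3:**
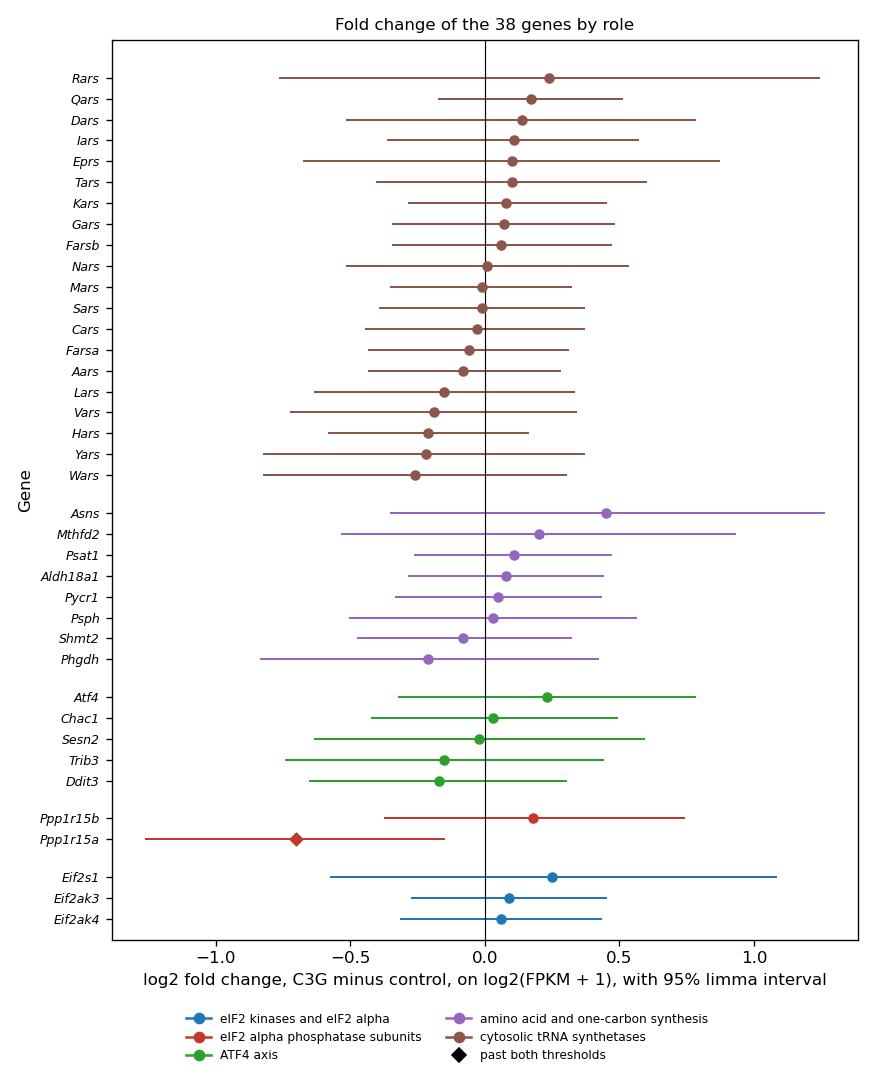
Log2 fold change of the 38 genes (C3G minus control, on log2(FPKM + 1)) with its 95% limma interval, grouped and coloured by role, with a diamond for the gene past both thresholds. *Ppp1r15a* at -0.70 is the gene whose interval stays off 0, and the other points lie between -0.26 and 0.45.

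The intervals show what 3 libraries against 3 could resolve in these genes. The estimate was smaller than its standard error in 33 of the 38 members. The interval lay within a 2-fold change either way in 34 members and within a 1.5-fold change in 20. Over all genes these counts were 8831 and 4276 of 11234. Changes under those sizes were not resolved here. The 4 members whose interval reached past a 2-fold change were *Ppp1r15a*, *Asns*, *Eif2s1* and *Rars*, in each of which control replicate 1 was the extreme library. Across same-numbered pairs, 4 members were higher with C3G in 3 of 3 (*Aldh18a1*, *Farsb*, *Iars* and *Qars*) and 3 were lower (*Ppp1r15a*, *Farsa* and *Hars*). These shares, 10.5% and 7.89%, were below those of all genes, 14.2% and 11.6%.

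Control replicate 1 was the highest of the 6 libraries in 11 members and the lowest in 17. Its departure from control replicates 2 and 3 ran from -1.47 (*Rars*) to 0.81 (*Yars*) on the log2 scale, and in 32 of 38 members it was larger than the fold change between the groups. The departure moved with the GC content of the longest transcript, which was 40.8% to 60.9% among the members. Across genes, which share the same libraries and are not replicates, Spearman's rho of departure and GC content was 0.693 over the 38 members, 0.839 over the 20 synthetases and 0.748 over all genes. *Dars*, *Eprs* and *Rars*, with GC contents of 41.2%, 44.0% and 45.9%, were at -0.86, -0.99 and -1.47 in that library, and *Vars*, at 60.9%, was at 0.68. *Atf4* (-0.53 at 55.5%) and *Asns* (-1.13 at 47.7%) lay below other members of like GC content. *Ppp1r15a* was at 0.72 with a GC content of 55.7%. C3G replicate 1 departed from its own group by -0.57 to 0.40, with a rho of 0.559 between departure and GC content. Its departure had the sign of that of control replicate 1 in 25 members and the other sign in 13, among them *Ppp1r15a* (-0.03), *Atf4* (0.06), *Asns* (0.12) and *Ddit3* (-0.28). It was larger in size than that of control replicate 1 for several members, among them *Lars* (-0.54), *Cars* (-0.35), *Pycr1* (0.24) and *Kars* (0.21).

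**Figure D4:**
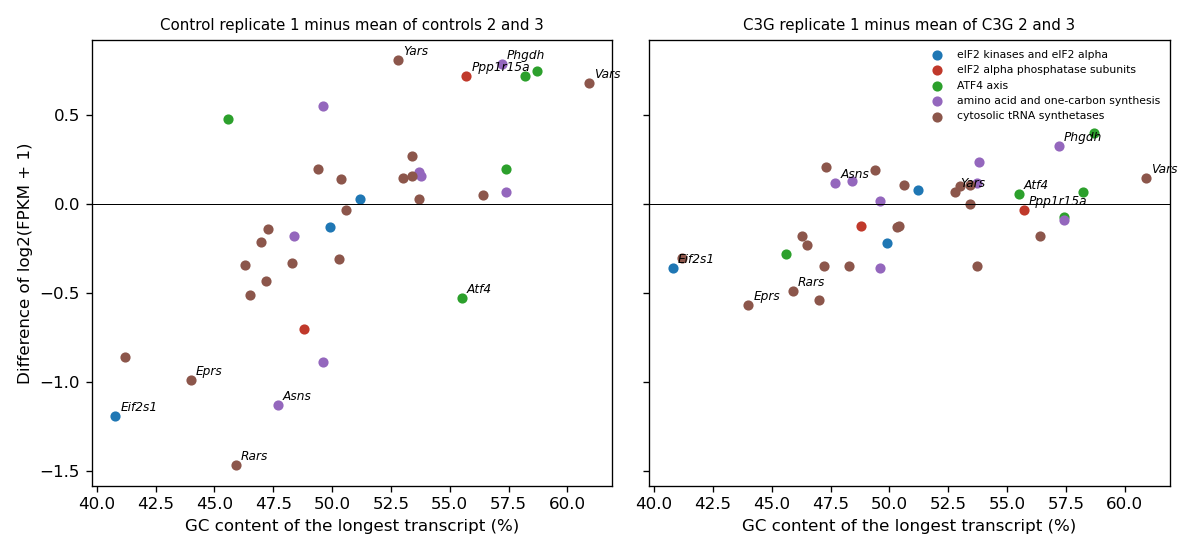
Difference of replicate 1 from the mean of replicates 2 and 3 of its group, on log2(FPKM + 1), against the GC content of the longest transcript, for the 38 genes, with controls on the left and C3G on the right. Colours are roles. Points run from -1.47 to 0.81 on the left and from -0.57 to 0.40 on the right, and in both panels most genes of low GC content lie below 0.

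With replicates 2 and 3 only, the 37 members other than *Ppp1r15a* lay between -0.21 (*Wars*) and 0.21 (*Psph*), with a median size of 0.04, where with all libraries they lay between -0.26 and 0.45 with a median size of 0.10. The smallest limma p among these 37 was then 0.212 (*Qars*). *Ppp1r15a* remained called there, and likewise once the libraries were corrected for GC content by a spline, at -0.66 with a limma p of 0.00372.

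Other genes of the pathway were read in the same fit. Of 12 other genes for eIF2, eIF2B and protein phosphatase 1 subunits and eIF2 kinases, 0 were called, beside 0.65% of all genes, and the median log2 fold change was 0.09 (-0.10 without control replicate 1). *Ppp1cc*, a catalytic subunit of protein phosphatase 1, was the gene among them without overlap (8.33% of the list, beside 4.02% of all genes), with 56.7, 56.8 and 51.0 FPKM in the controls and 49.3, 50.2 and 46.6 FPKM with C3G. Its log2 fold change of -0.17 passed neither threshold (limma p = 0.281, exact permutation p = 0.1), and 49.88% of its stretches occur in related genes. Of 17 mitochondrial synthetases 0 were called, with 5 fold changes above 0, 12 below and a median of -0.08. Of 3 scaffold genes of the multi-synthetase complex 0 were called, with a median of 0.31. At the 0.65% called over all genes, lists of these sizes could hold no call. In that list *Aimp2* had 9.31 FPKM in control replicate 1 and 18.9 to 22.0 FPKM elsewhere, and with replicates 2 and 3 only the median was -0.04.

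Of 21 other ATF4 targets, 1 was called higher and 1 lower, which is 9.52% of the list beside 0.65% of all genes, and the groups did not overlap in 9.52% beside 4.02%. The list was chosen with earlier results of these data known, and the study itself had listed *Slc6a9* as upregulated. These shares are thus a description and not a test of ATF4 targets. The fold changes were above 0 in 12 and below 0 in 9, with a median of 0.07 that turned to -0.04 without control replicate 1 and to -0.02 without C3G replicate 2. *Nupr1*, a stress-induced chromatin protein, had 7.34, 5.99 and 5.57 FPKM in the controls and 4.57, 4.28 and 4.28 FPKM with C3G. Every treated library lay below every control library, from a mean of 6.30 ± 0.925 FPKM (SD, n = 3) to 4.38 ± 0.167 FPKM (SD, n = 3). This log2 fold change of -0.44 had a standard error of 0.162 (exact permutation p = 0.1, limma p = 0.0319, adjusted p = 0.992). It was -0.34 without control replicate 1 and passed in 10 of 14 alternatives, not without control replicate 2 or any one of the C3G libraries, where it was -0.46 to -0.42. *Slc6a9*, the glycine transporter GLYT1, was low, with 1.53, 2.02 and 2.19 FPKM in the controls and 2.99, 3.01 and 2.53 FPKM with C3G. All of its treated libraries lay above the controls, with means of 1.91 ± 0.346 FPKM (SD, n = 3) and 2.85 ± 0.271 FPKM (SD, n = 3). The log2 difference, 0.41 with an error of 0.158 (standard error, exact permutation p = 0.1, limma p = 0.0375, adjusted p = 0.992), passed in 7 of 14 alternatives and was 0.31 without control replicate 1. It missed the p threshold without control replicate 2, without any one of the C3G libraries, with quantile normalization, with the GC correction and with replicates 2 and 3 only, at differences of 0.28 (replicates 2 and 3 only) to 0.48 (the GC correction). Its exons overlap those of *Ccdc24* on the opposite strand by 1258 bases. *Ppp1r15a* and *Nupr1* were thus called in one direction and *Slc6a9* in the other, while *Atf4* passed in neither.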

How the data were processed

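The authors deposited 1 FPKM value per gene and library, calculated with Ballgown from stranded RNA-seq libraries. The submitters' processing notes name cutadapt, HISAT2 2.1.0, StringTie and STAR 2.5.2b, and a human genome build, although the identifiers are those of mouse genes; how strand and shared reads were handled is not given in the sources used here. Each library has the same 11234 genes, and the larger group mean of a gene was never below 0.5002 FPKM. Symbols and positions came from GENCODE M21 (11211 genes matched, 9812 with its version number). Values of 200 low genes per library were not near whole multiples of any step tried (at most 32.0% lay within 0.1 of one, at the best of many steps), so depth could not be recovered and no counting error is given.

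On log2(FPKM + 1), a linear model was fitted in R 4.3.3 with limma 3.58.1 (lmFit, eBayes with trend), with group as the term and all 6 libraries. Thresholds of 0.05 and 1.2 are those the study gives without naming an adjustment. Single genes were also compared by two-sided exact permutation of the difference of means. Summaries used Python 3.11.15, pandas 2.3.3 and numpy 2.4.6.

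The members and lists were chosen with earlier results of these data known. Every member is named, and tests are given for *Ppp1r15a*, *Atf4*, members past both thresholds or without overlap, and the smallest p of each role; other fold changes are descriptions. Of the further lists, genes past both thresholds or without overlap are named; *Aimp2* was named after its values were seen. Other alternatives were a pseudocount of 0.1, a mean FPKM of at least 1, quantile normalization, median centring, the replicate number as a block, replicates 2 and 3 only and each library left out. The GC correction (a spline with 5 degrees of freedom), alone and with the block, was chosen after the data were seen. Replicate numbers come from the sample titles. Departures from the group means correlated at 0.653, 0.580 and 0.440 between same-numbered libraries and at -0.640 to 0.307 between others. Replicates 2 and 3 of opposite groups correlated at 0.307 and 0.300. Departures within a group sum to 0, so these correlations depend on one another and do not establish pairing. The numbers were used as pairs for same-numbered differences and for the block. The main fit and the permutation test did not use them. *Slc7a11* and *Stc2* were not analysed here.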

Additional observations from a re-analysis of the deposited data

How the results depend on the processing

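In 14 alternatives, *Ppp1r15a* kept its direction and passed both thresholds in 12, at -0.83 to -0.47 with each library left out in turn. It missed the p threshold without C3G replicate 1 (-0.69) and without C3G replicate 3 (-0.66), so the count of members called ran from 0 to 2, with *Wars* added without control replicate 2. The count over all genes, 73, was 169 with the replicate block, 191 with replicates 2 and 3 only, 135 with the GC correction, 246 with the GC correction and the block, and 40 to 144 with each library left out in turn (144 and 127 without control replicates 1 and 2, and 45, 40 and 43 without C3G replicates 1, 2 and 3). The replicate block changed the call of no member or listed gene, and *Ppp1r15a* stayed at -0.70 in it. Of the genes called, 61.6% were higher with C3G (45 to 28), against 30 to 30 with quantile normalization. The share was 46.1% with replicates 2 and 3 only (88 to 103), 49.6% with the GC correction (67 to 68), 48.4% with that and the block (119 to 127), 51.1% without C3G replicate 1 (23 to 22) and 69.8% without C3G replicate 3 (30 to 13). Adjusted calls were 0 in every fit. *Eif2s1* reversed to -0.02 with replicates 2 and 3 only and ran from -0.14 to 0.49 with each library left out, negative without control replicate 1; the causes were not tested. Of 448 values of members without a test, 1 moved by the replicate SD or more (*Ddit3*, 0.08 with replicates 2 and 3 only), and 21 members changed sign in an alternative that used all libraries or replicates 2 and 3. Members without overlap, 2 with all libraries, numbered 1 with quantile normalization or median centring, 4 (10.5%, beside 24.2% of all genes) with replicates 2 and 3 only, and 3 to 6 (7.89% to 15.8%, beside 8.82% to 14.0% of all genes) with each library left out in turn, with 4 without control replicate 2, 6 without C3G replicate 2 and 5 without C3G replicate 3. Depth is unknown, and 3 libraries per group limit the precision.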

Other observations

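*Wars2*, the mitochondrial tryptophan synthetase, was chosen after its values were seen. Its controls had 1.70, 2.55 and 2.09 FPKM and its C3G libraries 2.01, 0.736 and 1.06 FPKM, with overlap between C3G replicate 1 and control replicate 1. The log2 fold change of -0.49 missed the p threshold (limma p = 0.0757, exact permutation p = 0.2), and the gene passed both thresholds in 7 of 14 alternatives, among them replicates 2 and 3 only (-0.81). *Cebpb*, a partner of ATF4, was also chosen after its values were seen. It had 174 FPKM in control replicate 1 and 76.5 FPKM in C3G replicate 1, and 40.1 to 45.5 FPKM in the other 4 libraries. The GC content of its transcript was 67.2%, and its difference between the groups of -0.45 did not exceed the spread (limma p = 0.453, exact permutation p = 0.5).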
